A study of Mus musculus with 18 samples.

Results

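The transcripts of the inorganic pyrophosphatase genes Ppa1 and Ppa2 were followed in mouse cells sorted by fluorescence from the main olfactory epithelium (MOE), where olfactory sensory neurons (OSNs) lie in the nose. They are 2 of the 23359 gene symbols (23847 rows) in a table of 18 libraries. Rows were taken by symbol, and Ppa1 was chosen because its level rose steadily in the sorted cells of both mouse lines, so its difference between sorted and control cells is given as a description with no p-value. Ppa2 entered as its paralog and not for its own values. In the Taar5 line (genotype TAAR5-Cre&L10-GFP, age 11 to 14 days), 7 libraries came from GFP-positive cells (Taar5+) and 9 from GFP-negative control cells. In the Taar6 line (TAAR6-Cre&ZsGreen, 16 to 17 days), 1 library came from ZsGreen-positive cells (Taar6+) and 1 from ZsGreen-negative cells. The labels give the strain of both lines as C57BL/6, while the study's reporting summary gives a mixed background and older mice. All groups, controls included, came from mice carrying both the Cre allele and the reporter. Cre is translated from an internal ribosome entry site behind the stop codon of Taar5 or Taar6, so that any cell which ever transcribed the allele can carry the reporter. The control cells are the rest of the dissociated tissue, mainly OSNs that express odorant receptors (ORs). Line, reporter and age cannot be told apart between the lines. The labels do not say whether replicates came from separate animals, so p-values measure only the spread between these libraries.

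Inorganic pyrophosphatases split pyrophosphate (PPi) into inorganic phosphate. PPi is released when amino acids are loaded onto tRNA, when fatty acids are activated, when RNA and DNA are polymerised and when adenylyl cyclase makes cyclic AMP, the second messenger of odour transduction, and its removal pulls these reversible reactions forward. Ppa1 encodes the cytosolic enzyme and Ppa2 the mitochondrial one, which serves the matrix, where phosphate is joined to ADP.

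Ppa1 lies on chromosome 10 (chr10:61648552-61674168, plus strand, GRCm38, the same assembly as mm10), where it spans 25617 bases. Of its 4 annotated transcripts, 1 is coding (11 exons, 289 codons). It lies 37.5 Mb from the Taar gene cluster on the same chromosome. Ppa2 lies on chromosome 3 (chr3:133310110-133378235, plus strand) and spans 68126 bases. It has 8 annotated transcripts, of which 3 are coding, the longest with 12 exons and 330 codons. No annotated gene overlaps either of them. Of the 1315 stretches of 50 bases in the coding Ppa1 transcript, 27 (2.05%) occur also in the processed pseudogene Gm13500, and of those in the 3 coding Ppa2 transcripts 0 occur in another gene.

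Promoter bases of both genes are shown so that the pair, of which Ppa1 was chosen for its difference and Ppa2 did not pass the test, can be set side by side. They are from RefSeq on GRCm38.p6, plus strand, 5′ to 3′, each from 250 bases before the RefSeq start up to the base before the GENCODE gene, which for Ppa1 begins upstream of the RefSeq start, and capitals mark the E-box CACGTG and the GC box GGGCGG. The Ppa1 stretch is chr10:61648371-61648551 and the Ppa2 stretch is chr3:133309860-133310109.
Ppa1: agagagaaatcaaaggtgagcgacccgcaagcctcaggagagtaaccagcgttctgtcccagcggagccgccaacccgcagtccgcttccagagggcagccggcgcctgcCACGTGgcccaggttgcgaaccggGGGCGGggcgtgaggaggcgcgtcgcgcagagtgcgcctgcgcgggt
Ppa2: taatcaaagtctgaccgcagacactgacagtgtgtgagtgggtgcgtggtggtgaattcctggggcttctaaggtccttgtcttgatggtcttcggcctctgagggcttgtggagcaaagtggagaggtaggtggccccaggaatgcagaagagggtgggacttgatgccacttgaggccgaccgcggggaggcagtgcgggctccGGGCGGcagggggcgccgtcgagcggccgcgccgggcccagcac

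Over windows of 300 bases (250 before to 50 after the start, both strands searched), Ppa1 held 1 match to CACGTG and Ppa2 held 0, against 7.15% of 32851 RefSeq promoters with at least 1. GGGCGG was found 3 times for Ppa1, of which 1 lies in the stretch shown and the others after it, and 1 time for Ppa2, and 35.7% of all promoters held it. The motifs TATAAA (13.6% of promoters), CCCNNGGG (13.7%), which resembles the site of the olfactory O/E factors, and TAATTA (5.29%), which resembles a homeodomain site, had 0 matches in both. GC content was 71.7% for Ppa1 and 65.7% for Ppa2, above the median promoter at 52.7%. These are matches of letters and no measure of binding.

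Levels are in TPM, transcripts per 1000000 corrected for length, so the levels of the genes can be compared with each other. TPM keep no read depth, which is unknown here, and a value of 0 is given as listed at 0. In bulk samples, a cell type that is rarer cannot be told apart from one with less RNA per cell. All 7 mature OSN markers were above 0 in every library. The libraries differed in complexity, with 5939 to 17808 rows above 0. A pair of libraries stood apart. Control replicate 2 had the fewest rows above 0 (other controls 11352 to 17015), a summed OR level of 6174 TPM (other controls 13477 to 20251) and 6325 TPM of sustentacular cell markers (other controls 51.8 to 783). Taar5+ replicate 5 had 5525 TPM of OR transcripts (other Taar5+ libraries 225 to 1999), 8737 TPM of sustentacular markers (others 56.8 to 1833) and 6102 TPM of gland markers (others 2.60 to 182). Values are therefore also given without them.

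Ppa1 was among the abundant transcripts of control cells and one of the most abundant of Taar5+ cells. Its level in the 9 controls had a lowest value of 734, a median of 973 and a highest value of 1397 TPM, the last in control replicate 2. In the 7 Taar5+ libraries the lowest value was 1538 TPM in replicate 5, the median 6114 and the highest 7617. The groups did not overlap, and replicate 5 sat just above the highest control while the other Taar5+ libraries lay at 4986 TPM or more. Among all genes tested, 0.104% had every Taar5+ library above every control, a share from which nothing is read here since Ppa1 was picked on this contrast. In order of abundance among all genes, Ppa1 stood between places 70 and 165 in the controls. In the Taar5+ libraries other than replicate 5 it stood between places 7 and 12, and in replicate 5 at place 57.

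The mean level of Ppa1 was 996 ± 201 TPM (SD, n = 9) in control and 5442 ± 1941 TPM (SD, n = 7) in Taar5+ libraries, a ratio of means of 5.46. On the log2(TPM + 1) scale the difference was 2.34 with a standard error of 0.25. Without Taar5+ replicate 5 the Taar5+ mean was 6093 ± 983 TPM (SD, n = 6), and without control replicate 2 the control mean was 946 ± 142 TPM (SD, n = 8). The coefficient of variation was 20.1% among controls and 35.7% among Taar5+ libraries, or 16.1% without replicate 5. Of the 12502 genes tested, 2.06% had a smaller SD of log2 level among controls, and of the 266 genes within 2-fold of its control level, 21.1% did. Among Taar5+ libraries 45.0% of the tested genes had a smaller SD. Ppa1 was picked for a steady rise, so nothing is read from these shares. By size of the log2 difference Ppa1 stood at place 25 of the 12502, a place from which nothing is read since Ppa1 was picked on this contrast.

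Markers of other cell types were also set side by side between the groups, and 0 passed limma's adjusted p. Over all genes tested, 0.168% were called and 881 of 12502 had an unadjusted p under 0.05. Horizontal basal cell markers, among them the keratin genes Krt5 and Krt14, summed to 0 to 123 TPM in controls (60.1 to 123 without control replicate 2) and to 0 to 181 TPM in Taar5+ libraries (0 to 17.5 without replicate 5), with a median log2 difference of -2.64 and an unadjusted p under 0.05 in 3 of 3. Microvillar cell markers summed to 12.6 to 608 TPM in controls and 0.266 to 175 TPM in Taar5+ libraries, with a median of -2.02 and an unadjusted p under 0.05 in 1 of 2 tested. For blood and immune markers the sums were 3.51 to 279 and 0 to 154 TPM, the median -1.68 and the number 2 of 5. In the lists of sustentacular (median 0.64), gland (0.06), progenitor (-0.73) and ensheathing glia (-0.95) markers, 0 had an unadjusted p under 0.05 in limma. No marker in the table was at 0 in every library of a group. The part of these cells in the Ppa1 difference was not tested.

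Ppa2 was the scarcer of the pair in every library, and its groups overlapped. Its level in the 9 controls had a lowest value of 29.8 TPM in control replicate 2, a median of 77.9 and a highest value of 134. In the 7 Taar5+ libraries the lowest value was 89.5 TPM, the median 97.4 and the highest 183. All 7 Taar5+ libraries were above the control mean, but only 2 of them (replicates 4 and 6) were above the highest control. The means were 79.2 ± 29.5 TPM (SD, n = 9) and 116 ± 37.4 TPM (SD, n = 7).

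The difference in Ppa2 did not pass the test. In limma's fit over all 12502 genes, its log2(TPM + 1) difference was 0.59 with a standard error of 0.29 and a 95% confidence interval of -0.02 to 1.19 (Benjamini-Hochberg adjusted p = 0.750). A change of up to 1.19 on the log2 scale, or no change, lies within that interval. In the same test 0.168% of genes were called in either direction. Without control replicate 2 and Taar5+ replicate 5 the Ppa2 difference was 0.48 (limma adjusted p = 0.374).

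**Figure D1:**
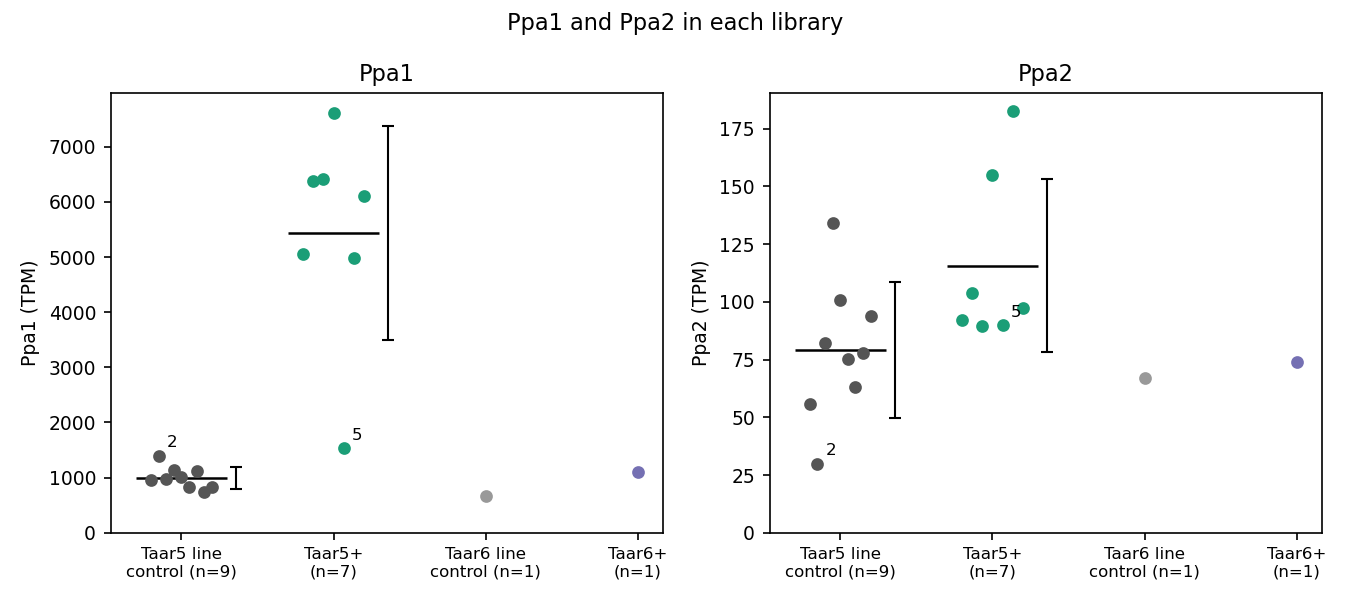
Ppa1 and Ppa2 levels (TPM, linear axes from 0) in every library, with 1 point a library, a line at the group mean and a bar of 1 SD for groups of more than 1 library; the numbers 2 and 5 mark control replicate 2 and Taar5+ replicate 5. Ppa1 lay between 734 and 1397 TPM in controls and between 1538 and 7617 TPM in Taar5+ libraries, while the Ppa2 groups overlapped between 89.5 and 134 TPM.

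The balance between the cytosolic and the mitochondrial enzyme transcript was therefore described by the ratio of their levels within each library. The ratio of Ppa1 to Ppa2 in controls ran from 8.44 to 17.7 in 8 of the libraries and was 46.8 in control replicate 2, where Ppa1 was at its control maximum and Ppa2 at its control minimum. In Taar5+ libraries the ratio was 17.1 in replicate 5, 27.3 in replicate 6 and between 49.2 and 71.8 in the other 5. Of the 7 Taar5+ libraries, 5 lay above every control. The mean log2 ratio, taken on TPM + 1, was 3.71 ± 0.77 (SD, n = 9) in controls and 5.46 ± 0.76 (SD, n = 7) in Taar5+ libraries, which differ by 1.75, or 3.37-fold. No test is given because the ratio holds the Ppa1 level used to choose the gene. Without Taar5+ replicate 5 the mean was 5.70 ± 0.49, and without control replicate 2 it was 3.49 ± 0.41. Ppa1 made up 89.4 to 97.9% of the summed level of the pair in controls and 94.5 to 98.6% in Taar5+ libraries.

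**Figure D2:**
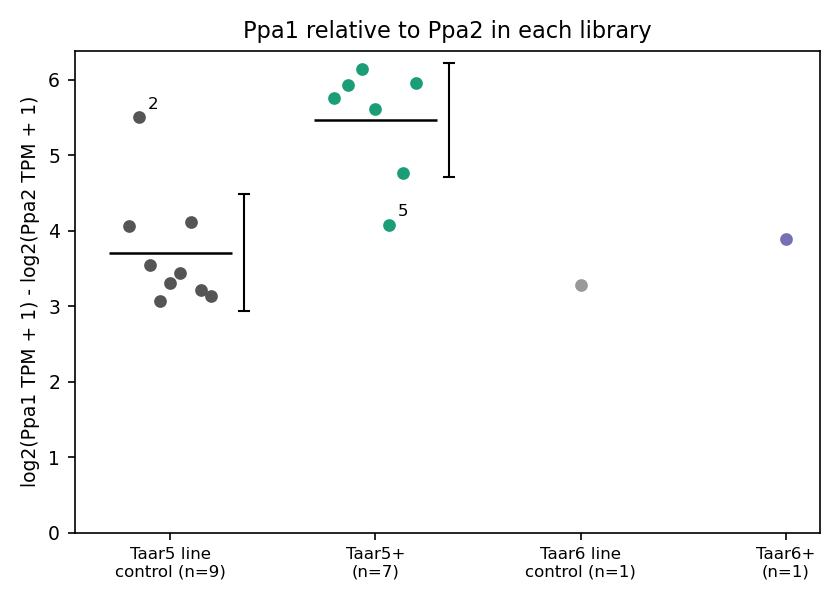
The log2 ratio of the Ppa1 to the Ppa2 level in every library, with 1 point a library, a line at the group mean and a bar of 1 SD; the numbers 2 and 5 mark control replicate 2 and Taar5+ replicate 5. Control replicate 2 (5.50) lay among the Taar5+ libraries and Taar5+ replicate 5 (4.08) among the controls.

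In the Taar6 line, with 1 library a group and no replicate check, Ppa1 was at 663 TPM in control and 1108 TPM in Taar6+ cells, a difference of 0.74 on the log2(TPM + 1) scale (1.67-fold). Of 15189 genes, 8.63% were at least 1.5-fold higher in the Taar6+ library and 23.7% at least 1.5-fold lower, and 6.90% had a difference at least as high as that of Ppa1. Ppa2 was at 67.1 and 73.8 TPM, a difference of 0.14. The ratio of Ppa1 to Ppa2 was 9.88 in the control and 15.0 in the Taar6+ library. The Taar sum in these libraries was 134 and 9894 TPM. Levels were not compared across lines, because of its housekeeping genes: Ppia had a listed value of 0 in the pair and Gapdh stood at 6.06 and 1.43 TPM, against 436 to 1222 TPM in the Taar5 line. Blood and immune markers summed to 88.3 TPM in the control and 703 TPM in the Taar6+ library, and sustentacular markers to 177 and 1457 TPM. Their part in the Ppa1 difference was not tested.

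Within the groups, Ppa1 was set against 4 measures of each library: the summed Taar level, the summed OR level, the number of rows above 0 and the Ppa2 level, all but the row number as log2 values. Because Ppa1 was chosen as high in Taar5+ cells against OR-rich control cells, its relations to the OR and Taar sums are not independent of that choice and are given as descriptions with no p. Among the 7 Taar5+ libraries, replicate 4 had the least OR transcript (225 TPM) and the most Ppa1 (7617 TPM), and replicate 5 the most OR (5525 TPM), the least Taar (1517 TPM) and the least Ppa1 (1538 TPM). Pearson's r of Ppa1 with the OR sum was -0.90 and Spearman's rho was -0.96. Without replicates 1 and 5, the libraries farthest from the median OR level, r was -0.99 over the other 5, and it stayed between -0.97 and -0.90 whichever single library was left out. Sustentacular and gland markers were highest in replicate 5 as well. The part of these markers, and of how completely the sort parted the cells, was not tested. The labels give no batch within which the relation could be recomputed.

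In the 9 controls the r of Ppa1 with the OR sum was -0.56. With the Taar sum it was 0.93 in Taar5+ libraries, but 0.23 without replicates 5 and 7. It fell as low as 0.19 with 1 library left out, so it can rest on a single library. In the 8 controls with their own Taar values it was 0.72, and 0.26 without the 2 farthest libraries. The other relations are given with exact permutation p-values, followed by their values adjusted over all 8 relations that were computed. For the number of rows above 0, r was -0.80 in Taar5+ libraries (exact permutation p = 0.0252, adjusted p = 0.0942) and 0.05 without the 2 farthest. In controls it was -0.65 (exact permutation p = 0.0589, adjusted p = 0.0942). Ppa1 and Ppa2 had r = 0.31 among Taar5+ libraries (exact permutation p = 0.513, adjusted p = 0.513) and -0.45 among controls (exact permutation p = 0.225, adjusted p = 0.258). No relation between the paralogs was detected within either group.

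**Figure D3:**
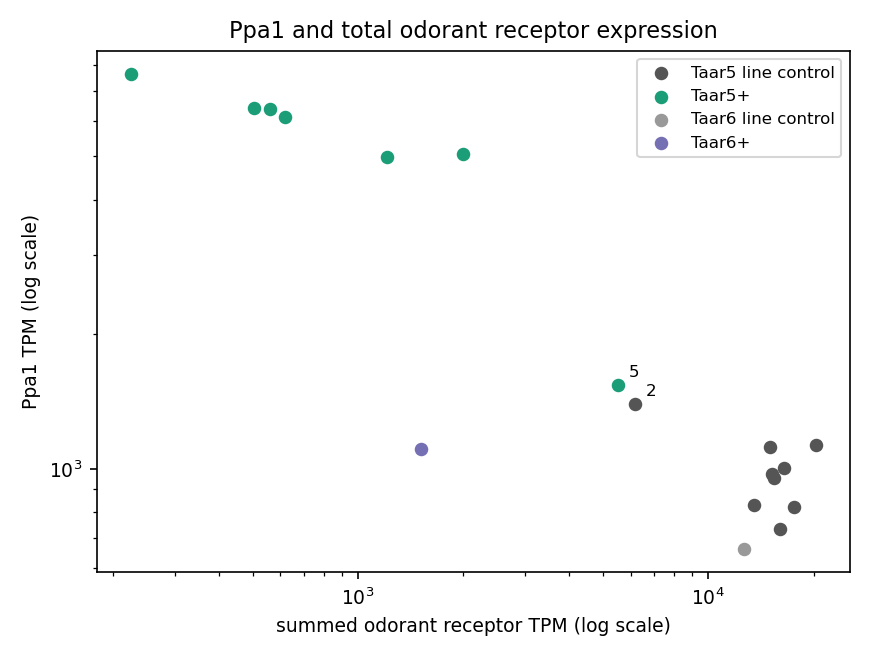
Ppa1 level against the summed OR level, both in TPM on log axes, with 1 point a library. The Taar6 control and Taar6+ libraries are drawn as well, though levels were not compared across lines. The numbers 2 and 5 mark control replicate 2 and Taar5+ replicate 5. The Taar5+ libraries run from 225 TPM of OR and 7617 TPM of Ppa1 to 5525 TPM of OR and 1538 TPM of Ppa1, and control replicate 2 has the lowest OR sum (6174 TPM) and the highest Ppa1 level (1397 TPM) of the controls.

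Genes of pathways on both sides of PPi, which release it or hydrolyse or carry it or phosphate, were described from 11 lists of 145 symbols. The lists are broad, and not every member itself acts on PPi or phosphate. Of the symbols, 144 were in the table and 119 passed the filter (1 TPM or more in 7 or more of the 16 Taar5-line libraries). Of the 119, 1 rose in Taar5+ cells and 0 fell by limma's adjusted p, and 4 had an unadjusted p under 0.05. The gene that rose was Acsm4, known to differ in these data when its list was written, so nothing is read from its call. No other member was called. Over all genes tested, 0.144% were called higher and 0.024% lower, and 881 of 12502 had an unadjusted p under 0.05. With shares that low, 0 calls in any of the lists is not read as a result about its members. The median log2 difference over the lists was 0.04, with 68 of the 119 above 0, and over all tested genes it was 0.02.

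The list of PPi and polyphosphate hydrolysis and transport was taken first. None of its 10 tested genes was called (0 also at an unadjusted p under 0.05). Over all genes tested 0.168% were called, so this count is not read as a result about these genes. Their median log2 difference was -0.17, with a range of -1.05 to 0.49. Ank, which carries PPi out of the cell, had 52.4 and 71.7 TPM in control and Taar5+ libraries (log2 difference 0.49, adjusted p = 0.858 in limma). Nudt2, a hydrolase of dinucleoside polyphosphates and the most abundant of this list, had 155 and 121 TPM (-0.35). Alpl, an alkaline phosphatase that splits extracellular PPi, had the widest difference, 9.73 and 3.50 TPM (-1.05). Among 4 tested phosphate carriers 0 were called (1 at an unadjusted p under 0.05, Slc20a2, a plasma membrane phosphate transporter, with 19.4 and 8.13 TPM and a log2 difference of -1.57). Slc25a3, which brings phosphate into the mitochondrial matrix, had 905 and 1050 TPM (0.21).

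Of the reactions that release PPi, tRNA charging is the broadest. In limma, 0 of 20 cytosolic aminoacyl-tRNA synthetases and 0 of 17 mitochondrial ones were called, and 0 of either had an unadjusted p under 0.05. With 0.168% of all genes called, nothing is read from these counts. The median log2 differences of these lists were 0.09 and 0.59. The second lies above the median of all genes, but no member passed, and most members of that list were listed at 0 in a control library. In the Taar6 line the mitochondrial list had a median of -0.30, against -0.21 over all genes. Gars, the synthetase for glycine, had 202 and 172 TPM (log2 difference -0.21) in control and Taar5+ libraries, and Qars, for glutamine, 63.6 and 30.9 TPM (-1.37). In mitochondria, Lars2, for leucine, had 205 and 221 TPM (0.01) and Yars2, for tyrosine, 17.9 and 24.0 TPM (1.38).

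Only 1 of 16 nucleotidyl cyclases passed the filter. This was Adcy3, the cyclase of odour transduction, with 852 and 1033 TPM in control and Taar5+ libraries, a log2 difference of 0.38 with a standard error of 0.43 (limma adjusted p = 0.956). The difference in Adcy3 was smaller than its error.

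Fatty acid and acetate activation, in which an acyl-AMP is formed and PPi released, held the gene that rose. Acsm4, a medium-chain acyl-CoA synthetase, was at 511 TPM in control (247 to 836) and 1476 TPM in Taar5+ libraries (759 to 2462), so the groups overlapped slightly. Its log2 difference was 1.53 with a standard error of 0.26 (limma adjusted p = 0.00994, but 0.113 without a mean-variance trend, where it did not pass). It was at 362 TPM in the control and 582 TPM in the Taar6+ library (0.69). Acsm4 was known to differ in these data when the list was written. Acss2, which makes acetyl-CoA from acetate, is named after its values were seen. It had 202 and 385 TPM in control and Taar5+ libraries (0.96, limma adjusted p = 0.0758). Its adjusted p fell to 0.0193 without control replicate 2, 0.0115 without control replicate 4 and 0.0232 without Taar5+ replicate 5. It was 0.0163 with quantile normalization, 2.2e-05 with array weights and 0.0043 without both libraries that stood apart. With the replicate block it rose to 0.223, and without a trend to 0.258. The 14 tested genes of this list had a median log2 difference of 0.28.

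In the synthesis of nucleotide sugars, lipid head groups, sulfate donor and NAD, 0 of 19 tested genes were called and 1 had an unadjusted p under 0.05. That gene was Papss2, which makes the sulfate donor PAPS and releases PPi in its first step, with 52.4 and 136 TPM (log2 difference 1.37, standard error 0.31, limma adjusted p = 0.101). It passed in 5 of 26 alternatives, with an adjusted p of 0.00983 when control replicate 2 was left out, 0.0289 without Taar5+ replicate 2, 0.0133 with quantile normalization, 0.00708 without both libraries that stood apart and 1.7e-05 with array weights. In the Taar6 line it was at 50.2 and 116 TPM (1.19). Pcyt2, which activates ethanolamine for phospholipid synthesis, had 94.7 and 83.9 TPM (-0.12).

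The remaining lists showed 0 calls and 0 genes with an unadjusted p under 0.05 in limma. The low share called over all genes, 0.168%, applies here too, and nothing is read from these counts. In 7 tested genes of nucleotide and amino acid synthesis the median log2 difference was -0.08, and Hprt, the purine salvage enzyme that releases PPi, had 162 and 190 TPM (0.28). Ppat, which opens purine synthesis, had 11.5 and 7.95 TPM (-0.61). In 7 genes of isoprenoid chain synthesis it was -0.14, where Fdps, which joins isoprene units, had 148 and 124 TPM (-0.22) and Pdss2, of the coenzyme Q side chain, 14.4 and 9.11 TPM (-0.90). In 8 tested activators of ubiquitin-like proteins it was 0.21, where Sae1, of SUMO activation, had 462 and 499 TPM (0.13). In 12 core subunits of RNA polymerase II it was 0.01, where Polr2j had 377 and 373 TPM (0.0048, a difference whose sign changed with the processing) and Polr2i 138 and 143 TPM (0.52). In the Taar6 line, where all genes had a median log2 difference of -0.21, the 11 lists together had one of -0.15.

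**Figure D4:**
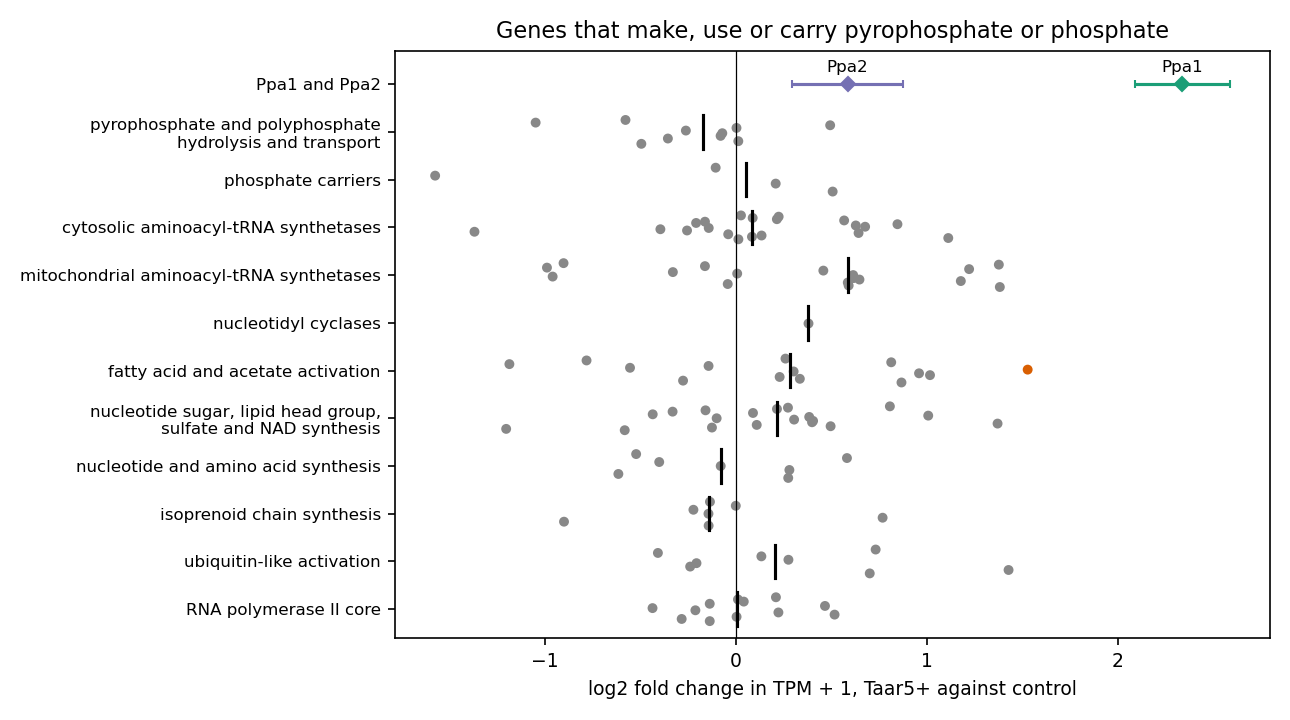
Difference in log2(TPM + 1), Taar5+ minus control, of each tested gene of the 11 lists (points) with the list median (line); orange points passed limma's adjusted p under 0.05, and diamonds give Ppa1 and Ppa2 with a bar of 1 standard error. Acsm4 (1.53) is the 1 orange point, and Ppa1 (2.34) lies beyond the whole range of the lists, -1.57 to 1.53. Ppa1 was picked on this contrast, so nothing is read from its place here. Acsm4 was known to differ in these data when its list was written.

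On the chromosome, the genes next to Ppa1 and Ppa2 were not called. Of the 3 nearest protein-coding genes of the table on each side of Ppa1, 5 were tested and 0 called, and 1 (Aifm2) had an unadjusted p under 0.05. Over all genes tested, 0.168% were called, and 881 of 12502 had an unadjusted p under 0.05 in limma. With shares that low, 0 calls among so few genes is not read as a result about the neighbours. Sar1a, a GTPase of vesicle export from the endoplasmic reticulum that starts 6.13 kb beyond Ppa1, had 128 ± 37.1 TPM (SD, n = 9) in control and 132 ± 29.5 TPM (SD, n = 7) in Taar5+ libraries, a log2 difference of 0.06. Npffr1, a neuropeptide receptor 19.99 kb before Ppa1, was at most 0.162 TPM in controls and 1.01 TPM in Taar5+ libraries and was not tested. Tysnd1, a peroxisomal protease 21.3 kb beyond, had a log2 difference of 0.65, and Lrrc20, 65.8 kb before, had 0.41 and Eif4ebp2, a repressor of translation initiation, -0.46. Aifm2, a coenzyme Q oxidoreductase 41.1 kb beyond, was low, with 1.06 and 6.51 TPM (1.61, limma adjusted p = 0.512, unadjusted p = 0.0209).

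Around Ppa2, 5 of 6 neighbours were tested and 0 called, with 0 at an unadjusted p under 0.05 in limma. The same low shares over all genes apply, and nothing is read from these counts. Their log2 differences were -0.11 for Gstcd, 0.53 for Ints12, an Integrator subunit, -0.05 for Arhgef38, 0.18 for Tet2, a methylcytosine dioxygenase, and 0.87 for Cxxc4. Tacr3, the neurokinin receptor gene, was listed at 0 in all Taar5+ libraries and in 8 of the 9 controls and was not tested.

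**Figure D5:**
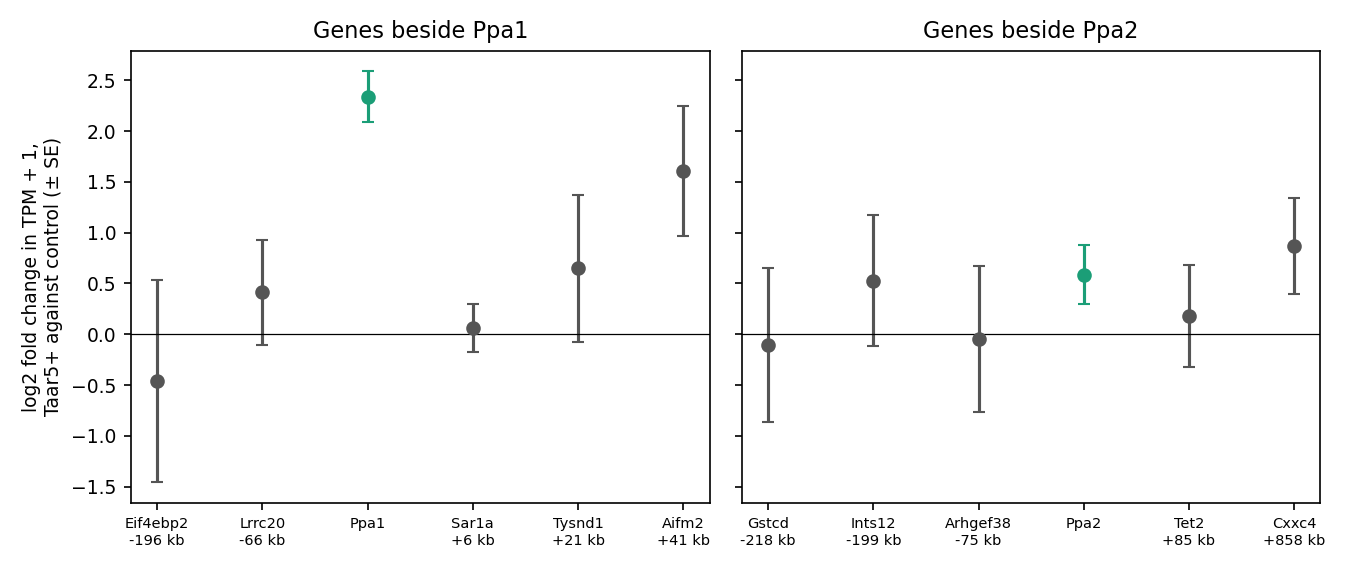
Difference in log2(TPM + 1), Taar5+ minus control, with a bar of 1 standard error, of the tested neighbours on either side of Ppa1 and of Ppa2 in their order on the chromosome. Ppa1 stands at 2.34 between Lrrc20 (0.41) and Sar1a (0.06), and Ppa2 at 0.59 between Arhgef38 (-0.05) and Tet2 (0.18).

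Across the 16 libraries of the Taar5 line, the genes whose log2 level was most like that of Ppa1 by Pearson's r were Psmd14 (0.96), a deubiquitinase of the proteasome lid, and the receptor genes Taar8c (0.95), Taar7e (0.93), Taar8a (0.93) and Taar4 (0.93), the receptors over 15 libraries. Psmd14 was at a mean of 232 TPM in control and 853 TPM in Taar5+ libraries, and at 142 and 700 TPM in the Taar6 line. Ppa2 had r = 0.46 with Ppa1, and the median over all tested genes was -0.09. These values hold the difference between the groups. After each group's mean was subtracted, the 5 most alike included Psmd14 (0.88), Mpc1 (0.86), of the mitochondrial pyruvate carrier, Atp5f1 (0.79), of ATP synthase, and A430035B10Rik (0.79), while Ppa2 had -0.00 and the median gene -0.27. The points share the libraries and their complexity, and no p is given. These r were not computed without Taar5+ replicate 5, where Ppa1 was lowest in its group, so they can rest on that library.

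The genes most like Ppa2 were others. Across the 16 libraries they were Lace1 (0.93), a mitochondrial ATPase, Cerkl (0.89), Tstd3 (0.88), Idnk (0.88), a gluconokinase, and Rbm48 (0.86), against a median gene of 0.14. With group means subtracted they were Lace1 (0.92), Caml (0.92), BC005624 (0.88), 1810026B05Rik (0.88) and Idnk (0.87), against 0.18. Lace1 and Idnk stood in both of these lists for Ppa2, and Psmd14 in both for Ppa1. None of the 5 most alike was shared by the pair on either measure. The r for Ppa2 were not computed without control replicate 2, where Ppa2 was lowest, and can rest on that library.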

How the data were processed

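Cells were sorted from MOE by reporter fluorescence, and libraries were made by Smart-seq2, which amplifies cDNA by PCR without molecular identifiers. The authors mapped reads to mm10 with HISAT2 2.1.0 after Trimmomatic 0.36, per the submitters' processing notes, and quantified genes with Cufflinks 2.2.1. The deposited values are TPM per gene and library. The annotation, the use of strand and the treatment of reads with several matches are not given in the sources used here. Depth is unknown, so no counting error is given. The 488 rows that repeat one of 256 symbols were summed with it. In control replicate 2 the Taar rows were copies of those in control replicate 1 and were counted once, so Taar genes had 8 controls.

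Genes that reached 1 TPM in 7 or more of the 16 Taar5-line libraries were tested with limma 3.58.1 (R 4.3.3, eBayes with a trend, Benjamini-Hochberg threshold 0.05) on log2(TPM + 1), a scale that understates the change of low genes. The design was group alone. Relations within groups used exact two-sided permutation tests (Python 3.11.15, numpy 2.4.6, scipy 1.17.1). The Taar6 line, with 1 library a group, had no test. Gene positions were taken from GENCODE M21 (GRCm38). The fit was tested on simulated data with known changes.

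The members and lists were chosen with earlier results of these data known. Named were Ppa1 and Ppa2, of each list the called members, the most abundant and the one of largest change, the 5 genes most alike by r, and the 3 nearest genes on each side. A few genes that this rule names are not reported here. Alternatives were other pseudocounts (0.1), filters (at least 5 TPM, or none), quantile normalization, TPM rescaled without receptor genes, no trend, array weights, a replicate block, all 18 libraries with line as a covariate, and each library left out. Leaving out both libraries that stood apart was added after the data were seen.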

Additional observations from a re-analysis of the deposited data

Results flagged for a closer look

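Dixon's test at the 95% level, on log2 values, was run on 74 groups of values, and in 13 a single library lay far from the rest of its group. Chance gives about 1 in 20, or 3.7 of 74. Taar5+ replicate 5 had the lowest Ppa1 level (1538 TPM, others 4986 to 7617) and the lowest summed Taar level (1517 TPM, others 4542 to 7804). Control replicate 2 had the highest log2 ratio of Ppa1 to Ppa2 (5.50, others 3.07 to 4.12) and the lowest summed OR level (6174 TPM, others 13477 to 20251). In the same library Polr2i was at 2.12 TPM (others 84.5 to 204), and Ints12 (others 6.26 to 38.0), Ppat (others 6.82 to 20.8) and Tysnd1 (others 38.5 to 75.4) were listed at 0. Elsewhere Papss2 was lowest in Taar5+ replicate 2 (54.7 TPM, others 119 to 196), and Qars was listed at 0 in Taar5+ replicate 4 (others 10.6 to 56.1 TPM). Lrrc20 was lowest in control replicate 8 (1.17 TPM, others 10.4 to 28.3). Npffr1 was at 0.162 TPM in control replicate 6 and Tacr3 at 0.659 TPM in control replicate 9, and both were listed at 0 in the other controls.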

How the results depend on the processing

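Over 26 alternatives the log2 difference of Ppa1 stayed between 2.16 and 2.68. That of Ppa2 stayed between 0.22 and 0.69, with limma adjusted p from 0.316 to 0.995 and an unadjusted p under 0.05 in 5 of the 26. Of 983 alternative values over all results, 902 kept their direction and side of the threshold, 55 reversed, 14 moved, 8 gained and 4 lost the threshold. The number of genes called over all genes, 21, was 109 with quantile normalization, 1329 with array weights, 12 with the replicate block and 337 without both libraries that stood apart, and 16 to 148 with 1 library left out (148 without control replicate 2, 66 without Taar5+ replicate 5). Over the pyrophosphate lists, where 1 gene was called, the number was 3 with quantile normalization, 0 without a trend (Acsm4 was lost), 8 with array weights, 3 without both libraries, and 1 to 3 with 1 library left out. The causes were not tested.

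The replicate numbers were not treated as pairs, because the correlation of deviations was not above 0.1 for every number: it ran from -0.00617 to 0.275 over 7 numbers and was above 0.1 in 5. As a hint from the data, 3 of 7 libraries correlated best with their own number, so some sharing cannot be told apart from its absence. With the replicate block the log2 difference was 2.25 for Ppa1 and 0.65 for Ppa2 (limma adjusted p = 0.552).

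Of the relations of Ppa1, that with the OR sum in Taar5+ libraries was -0.99 without the 2 farthest and -0.97 to -0.90 with 1 library left out. With the Taar sum, r ran from 0.19 to 0.96 in Taar5+ and from 0.58 to 0.83 in control libraries with 1 left out. With rows above 0, r in Taar5+ libraries was 0.0507 without the 2 farthest and -0.87 to -0.46 with 1 left out, and in controls 0.0127 and -0.91 to -0.24. With 1 left out, r with the OR sum in controls ran from -0.75 to 0.31, and r with Ppa2 from -0.0103 to 0.465 in Taar5+ and from -0.73 to 0.21 in control libraries.

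Some named genes changed the sign of their log2 difference. With array weights it was -0.44 for Ints12, -0.10 for Sae1, -0.0762 for Sar1a, -0.13 for Tet2, -0.0938 for Polr2j and -0.0075 for Tysnd1. Without both libraries that stood apart it was -0.10 for Lars2, -0.0549 for Polr2i, -0.11 for Sar1a, -0.10 for Tet2 and -0.0829 for Tysnd1. It was -0.0028 for Lars2 with a pseudocount of 0.1, and without receptor genes -0.0040 for Lars2 and -0.0074 for Polr2j. It was -0.0777 for Polr2j with all 18 libraries, 0.14 for Arhgef38 with the replicate block, and with quantile normalization 0.018 for Gstcd and 0.00050 for Pcyt2. With 1 library left out it ran from -0.37 to 0.38 for Arhgef38, -0.95 to 0.0191 for Eif4ebp2, -0.42 to 0.32 for Gstcd, -0.46 to 0.60 for Lars2, -0.19 to 0.00088 for Pcyt2, -0.10 to 0.65 for Polr2i, -0.0871 to 0.10 for Polr2j, -0.0376 to 0.14 for Sar1a and -0.0090 to 0.90 for Tysnd1.

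Limits are the unknown depth, 1 library a group in the Taar6 line, the libraries that stood apart, and zeros that cannot be told apart from failed estimates.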
